A study of Mus musculus with 14 samples.

Results

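The genes described here are 10 chemokines: Ccl2, Ccl7, Ccl12, Ccl8, Ccl5, Cxcl9, Cxcl10, Cxcl16, Cxcl1 and Cxcl13. They were found by symbol in the GENCODE mouse annotation and are 10 of 55536 genes in the count table and 10 of the 38070 genes with enough counts to test. They were chosen by their levels in MRL mice against the other groups, so every comparison that holds MRL mice is given below as a description. No p-value of a member is printed for them, and counts of genes past a threshold in these comparisons only describe them.

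RNA was sequenced from the hippocampus of 14 mice aged 10 months. MRL mice (n = 4) are B6.MRL-Faslpr/J, which carry the lpr mutation of the death receptor gene Fas and develop a lupus-like disease. MRL-IRAK4-KD mice (n = 4) carry lpr and also a kinase-dead form of IRAK4, the kinase that relays signals of interleukin-1 receptors and most Toll-like receptors. IRAK4-KD mice (n = 3) carry the kinase-dead allele alone, and C57BL6/J mice (n = 3) carry neither. All 4 groups are on the C57BL/6 background, and per the methods the brains were perfused before dissection. The kinase-dead allele was present in all tissues, so no comparison separates a brain-cell change from a change in blood cells or vessels. The labels do not say whether mice of a group were littermates.

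Chemokines are small secreted proteins that direct leukocytes along gradients through receptors on the cell surface. Ccl2, Ccl7 and Ccl12 attract monocytes, mainly through Ccr2, and mouse Ccl8, of the same gene cluster, is known as a ligand of Ccr8. Ccl5 attracts T cells and monocytes, in part through Ccr1. Cxcl9 and Cxcl10 are induced by interferons and attract activated T cells through Cxcr3. Cxcl16, a membrane-bound chemokine that can be shed, binds Cxcr6. Cxcl1 attracts neutrophils through Cxcr2, and Cxcl13 attracts B cells through Cxcr5. In the brain these genes are known to be made by microglia, astrocytes, border macrophages and the endothelium of vessels, at low levels when there is no inflammation.

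All 10 transcripts were rare. As CPM, the count of a gene for each 1000000 counts of its library after TMM scaling, the mean over 14 mice ran from 0.0419 for Cxcl13 to 1.82 for Cxcl16, which put them between the 30.3 and 61.7 percentile of the genes tested. Total counts were between 279723718 and 571925600 a library. The raw count of a member in 1 library was between 0 and 1277. With each count taken as a read, a count of 0 in a library allows up to 3 counts. This is between 0.00525 and 0.0104 CPM across the libraries and covers counting error only. Counts exceeded the reads listed by 1.4 to 2.08 times, so these limits may be too low. Compared per kilobase of exon, so that genes of different length can be set side by side, the median over 14 mice was highest for Cxcl16 at 0.573 CPM per kb and next for Ccl12 at 0.50. These neighbours in the order could not be told apart, since Cxcl16 was the higher of the pair in 7 of 14 mice. Ccl12 was above Cxcl10 in all 14 mice. The lowest medians were 0.0270 CPM per kb for Cxcl13 and 0.0268 for Cxcl9, where the first was the higher in 7 of 14 mice.

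Some libraries stood apart. The library labelled IRAK4-KD 3 had 0 counts of the full-length Fas transcript and 514 of the short Fas transcript seen in lpr mice, where the other IRAK4-KD libraries had at least 360 and at most 7, so it goes against its label, and it also had the highest summed level of thalamus and striatum markers (383 CPM). MRL-IRAK4-KD 4 had the highest choroid plexus sum (7784 CPM), and 1.40 counts per read against up to 2.08 elsewhere. MRL 3 had a pituitary sum of 87.2 CPM. Irak4 itself was between 1.54 and 2.72 CPM in all 14 mice, which does not check the labels, because a kinase-dead allele still makes its transcript. The main chemokine values that rest on MRL-IRAK4-KD 4 or the library labelled IRAK4-KD 3 are given with and without them. Values of the receptor, ligand, regulator and marker lists are given with all libraries only.

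**Figure D1:**
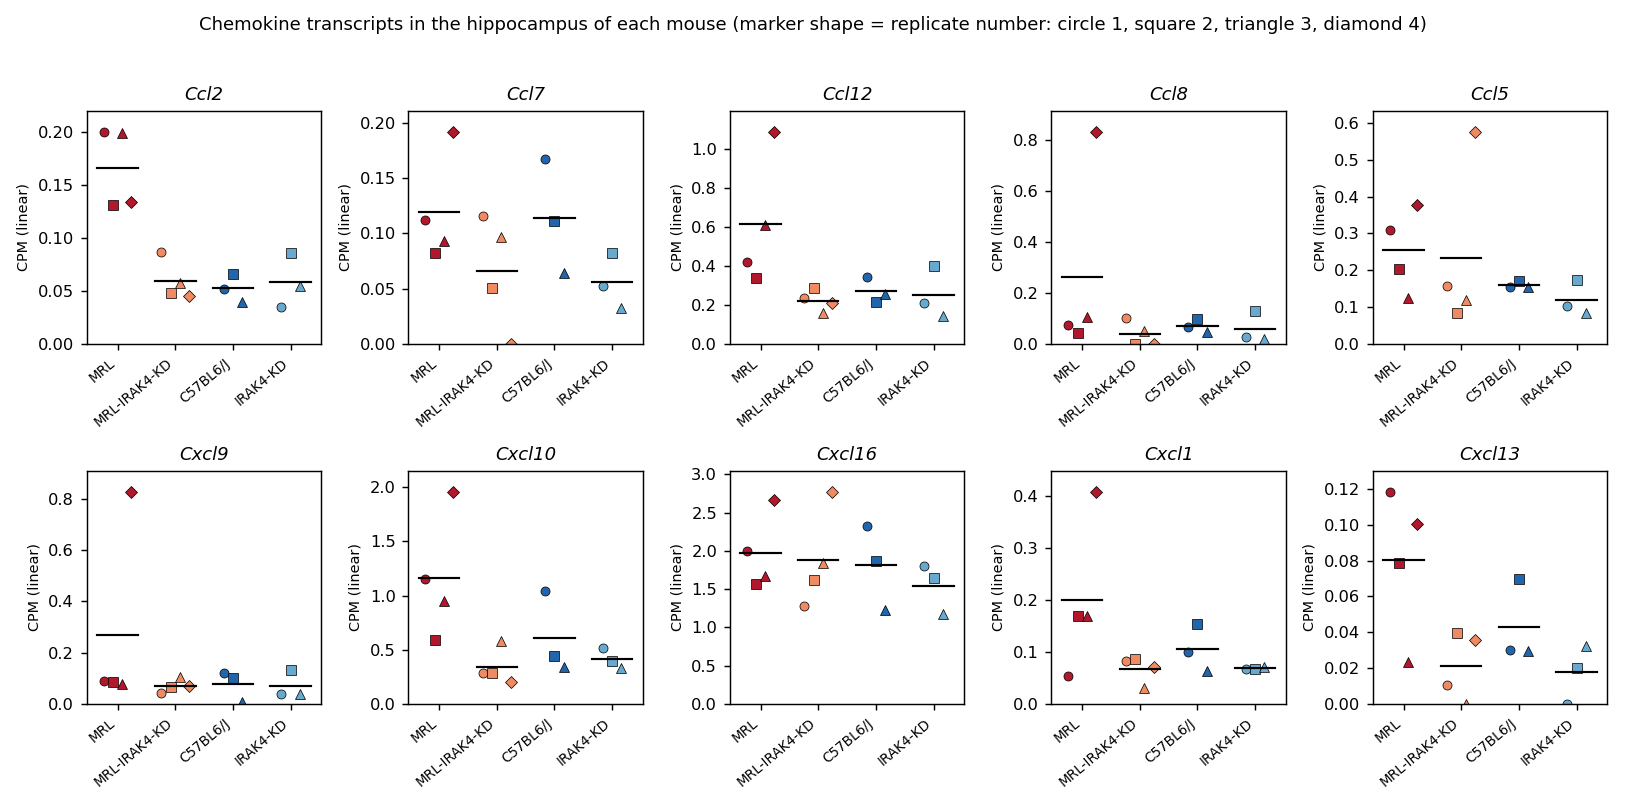
Level of each chemokine in each mouse in CPM on a linear axis, with 1 panel a gene, 1 point a mouse and a bar at the group mean. All 4 MRL mice lie above all 10 other mice for Ccl2 alone, and the MRL 4 diamond lies far above the other MRL mice for Ccl8 (0.832 CPM) and Cxcl9 (0.826 CPM).

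Ccl2, the main ligand of Ccr2, had 0.200, 0.131, 0.199 and 0.134 CPM in the 4 MRL mice. It had 0.0867, 0.0477, 0.0574 and 0.0451 CPM in MRL-IRAK4-KD mice, 0.0514, 0.0661 and 0.0393 in C57BL6/J mice and 0.0347, 0.0851 and 0.0541 in IRAK4-KD mice. Every MRL mouse was above each of the 10 other mice, and no other member showed this. Among all genes tested, 0.728% had all MRL mice above all 10 others. The log2 difference of MRL from MRL-IRAK4-KD was 1.48 (standard error 0.40), from C57BL6/J 1.66 (0.45) and from IRAK4-KD 1.51 (0.44). Leaving out MRL 4 gave 1.58 against MRL-IRAK4-KD, so this difference did not rest on that library. The gene counts were small, with 64 to 94 in MRL libraries and 14 to 42 elsewhere, and they were divided unevenly between 2 transcripts. In MRL 1, 2 and 3 most lay on the spliced coding form (71, 69 and 93 counts), whereas in MRL 4 all 64 lay on a form that retains an intron. The spliced form had 0, 16, 0 and 0 counts in MRL-IRAK4-KD mice, 18, 19 and 0 in C57BL6/J mice and 0, 34 and 27 in IRAK4-KD mice, so on this form MRL 4 was not above the other groups. The log2 difference of the spliced form between MRL and MRL-IRAK4-KD was 3.40. In neither form alone were all MRL mice above all others.

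Ccl12, a mouse monocyte attractant of the same cluster on chromosome 11, had 0.419, 0.338, 0.610 and 1.09 CPM in MRL mice. In MRL-IRAK4-KD mice it had 0.235, 0.284, 0.159 and 0.206 CPM. The pair of groups did not overlap, and the highest MRL-IRAK4-KD mouse was below the lowest MRL mouse. C57BL6/J mice had 0.344, 0.212 and 0.253 CPM and IRAK4-KD mice 0.211, 0.40 and 0.144, so single mice of both groups reached the MRL range. The log2 difference from MRL-IRAK4-KD was 1.47 (standard error 0.41), and 1.06 without MRL 4.

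Ccl8 and Ccl7, the remaining members of that cluster, followed other patterns. Ccl8 had 0.0731, 0.0403, 0.106 and 0.832 CPM in MRL mice. In MRL-IRAK4-KD mice it had 0.101 CPM in replicate 1, 0.0482 in replicate 3 and 0 counts in replicates 2 and 4. MRL 4 alone held 398 of the 505 Ccl8 counts of the MRL group, and the other MRL mice lay among the other groups, whose highest was 0.128 CPM. The log2 difference from MRL-IRAK4-KD, 2.77 (standard error 1.25), was the largest of the members and became 0.94 without MRL 4. Ccl7 had 0.112, 0.0823, 0.0929 and 0.192 CPM in MRL mice, with 0.168, 0.111 and 0.0639 in C57BL6/J mice. These ranges overlapped almost whole, and the log2 difference of MRL from C57BL6/J was 0.07 (standard error 0.83), which became -0.24 without MRL 4 and 0.45 without C57BL6/J 1. In MRL-IRAK4-KD mice Ccl7 had 0.116, 0.0505 and 0.0965 CPM and 0 counts in replicate 4, a log2 difference of MRL of 0.85 (standard error 0.77) that was 0.45 without that library. In IRAK4-KD mice it had 0.0520, 0.0826 and 0.0324 CPM.

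Ccl2, Ccl7, Ccl12 and Ccl8 lie within 81229 bases of each other (chr11:82035571-82116799, GRCm38, forward strand). The 9 other genes tested within 500 kb of them had a median log2 difference of 0.01 between MRL and MRL-IRAK4-KD, with 5 of 9 above 0 and 0 called at an adjusted p below 0.05. Over the loci of all members, 167 other genes had a median of -0.01, with 0 called, beside 0.0972% of all genes. With so small a share of all genes called, these counts of 0 do not show that the neighbours were unchanged.

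Ccl5 had 0.310, 0.203, 0.125 and 0.378 CPM in MRL mice. Its highest level of all was in MRL-IRAK4-KD 4 at 0.576 CPM, while the other MRL-IRAK4-KD mice had 0.157, 0.0842 and 0.119. C57BL6/J mice had a narrow range of 0.154 to 0.171 CPM and IRAK4-KD mice had 0.0829 to 0.173. The log2 difference of MRL from MRL-IRAK4-KD was 0.12 (standard error 0.55) with all libraries and 1.08 (0.41) without MRL-IRAK4-KD 4, while it was -0.10 without MRL 4 and -0.13 without MRL-IRAK4-KD 2. So 1 library, which stood apart in other ways as well, moved this value most.

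Cxcl10 had the highest level in CPM after Cxcl16, with 1.16, 0.593, 0.948 and 1.95 CPM in MRL mice. In MRL-IRAK4-KD mice it had 0.281, 0.284, 0.581 and 0.203 CPM, all below the lowest MRL mouse. It had 0.518, 0.393 and 0.335 CPM in IRAK4-KD mice, which also lay below every MRL mouse. C57BL6/J mice had 1.04, 0.445 and 0.339 CPM, and the first of these lay within the MRL range. The log2 difference from MRL-IRAK4-KD was 1.78 (standard error 0.45) and 1.43 without MRL 4. From IRAK4-KD it was 1.49 (0.49), or 1.35 without the library labelled IRAK4-KD 3. From C57BL6/J it was 0.94 (0.48), and single libraries moved it to 1.57 (without C57BL6/J 1) and 0.58 (without MRL 4). Cxcl10 shares 133 exon bases with Art3 on the opposite strand, whose own log2 difference between MRL and MRL-IRAK4-KD was 0.04 (standard error 0.16). All 63 Cxcl10 counts of MRL-IRAK4-KD 4 lay on a form that retains an intron. On the most abundant Cxcl10 transcript the log2 difference of MRL from MRL-IRAK4-KD was 2.24.

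Cxcl9, whose gene lies 18558 bases from Cxcl10 on chromosome 5, had 0.0903, 0.0858, 0.0760 and 0.826 CPM in MRL mice. MRL 4 held 395 of the 522 Cxcl9 counts of the group. The other MRL mice lay inside the range of the 10 remaining mice, 0.00737 to 0.133 CPM. The log2 difference from MRL-IRAK4-KD was 1.94 (standard error 0.89) and 0.29 without MRL 4. So these interferon-induced genes were both highest in the same mouse, but without it only Cxcl10 kept MRL mice above all MRL-IRAK4-KD mice.

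Sequence upstream of these genes is shown because Cxcl9, Cxcl10 and Cxcl1 are textbook targets of interferon-activated factors, of NF-kB, or of both, and NF-kB lies downstream of IRAK4. The 250 bases before the transcription start were taken from RefSeq (GRCm38.p6), which had an entry for 6 of 10 members and not for Ccl2, Ccl5, Ccl7 or Cxcl16. Capitals mark matches on either strand to the core of the interferon-stimulated response element (GAAANNGAAA), the NF-kB consensus, or the interferon-gamma-activated sequence, called GAS (TTCNNNGAA). The Cxcl10 window is chr5:92348890-92349139, the Cxcl9 window chr5:92328080-92328329, both on the reverse strand, and the Cxcl1 window chr5:90890995-90891244 on the forward strand.
Cxcl10: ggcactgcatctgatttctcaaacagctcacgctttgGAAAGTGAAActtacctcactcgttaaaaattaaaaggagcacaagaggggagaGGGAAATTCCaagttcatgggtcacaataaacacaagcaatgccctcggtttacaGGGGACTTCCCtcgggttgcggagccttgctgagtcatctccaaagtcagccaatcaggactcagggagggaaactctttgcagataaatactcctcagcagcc
Cxcl9: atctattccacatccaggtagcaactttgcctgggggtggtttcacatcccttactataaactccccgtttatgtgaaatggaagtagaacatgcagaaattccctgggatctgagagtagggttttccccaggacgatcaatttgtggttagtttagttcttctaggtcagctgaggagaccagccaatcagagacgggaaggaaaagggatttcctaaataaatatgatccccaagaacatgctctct
Cxcl1: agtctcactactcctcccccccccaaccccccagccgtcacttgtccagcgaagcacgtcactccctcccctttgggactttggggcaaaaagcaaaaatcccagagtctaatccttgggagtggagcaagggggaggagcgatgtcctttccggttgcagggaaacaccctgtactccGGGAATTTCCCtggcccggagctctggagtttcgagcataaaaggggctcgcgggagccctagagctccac
Cxcl10 held 1 response element core at -213 to -204 from the start. It also held NF-kB matches at -159 to -150 and, in 2 overlapping frames, at -104 to -94. Cxcl1 held overlapping NF-kB matches at -71 to -61, and Cxcl9, like Ccl12, Ccl8 and Cxcl13, held none of the 3 motifs in this window. Of all 32851 promoter windows, 2.98% held the response element core, 7.25% the NF-kB consensus and 7.02% GAS. A match is a description of letters and was not tested as a binding site.

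Cxcl1, the neutrophil attractant, had 0.0538, 0.170, 0.169 and 0.408 CPM in MRL mice. It had 0.0825, 0.0870, 0.0299 and 0.0708 CPM in MRL-IRAK4-KD mice and 0.0669 to 0.0703 CPM in the 3 IRAK4-KD mice. MRL 2, 3 and 4 were thus above both kinase-dead groups, and MRL 1 was below most of their mice. C57BL6/J mice had 0.10, 0.153 and 0.0639 CPM. The log2 difference of MRL from MRL-IRAK4-KD was 1.56 (standard error 0.54) and 0.97 without MRL 4. All Cxcl1 counts of MRL-IRAK4-KD 3 (13), C57BL6/J 1 (37) and the library labelled IRAK4-KD 3 (39) lay on a form that retains an intron. On the most abundant transcript the log2 difference of MRL was 1.92 from C57BL6/J and 2.39 from IRAK4-KD, where the gene had 0.92 and 1.55. Cxcl13, the B cell attractant and the rarest member, had 0.118, 0.0788, 0.0232 and 0.10 CPM in MRL mice. It had 0.0103, 0.0393, 0 and 0.0354 CPM in MRL-IRAK4-KD mice, with a log2 difference of 1.92 (standard error 1.06). The MRL 3 value overlapped the other groups, and no library held more than 55 counts.

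Cxcl16 had the smallest log2 difference of the members from MRL-IRAK4-KD and IRAK4-KD, while from C57BL6/J that of Ccl7 was smaller. It had 2.00, 1.57, 1.67 and 2.67 CPM in MRL mice and 1.28, 1.62, 1.84 and 2.77 CPM in MRL-IRAK4-KD mice, which overlapped throughout. C57BL6/J mice had 2.32, 1.87 and 1.23 CPM and IRAK4-KD mice 1.80, 1.64 and 1.18. The log2 difference between MRL and MRL-IRAK4-KD was 0.07 (standard error 0.27), -0.08 without MRL 4 and 0.33 without MRL-IRAK4-KD 4. It is the member with the most counts, so its error was the smallest. It shares 552 exon bases with Zmynd15 on the other strand, and 14.2% of its windows of 100 bases are also found there.

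**Figure D2:**
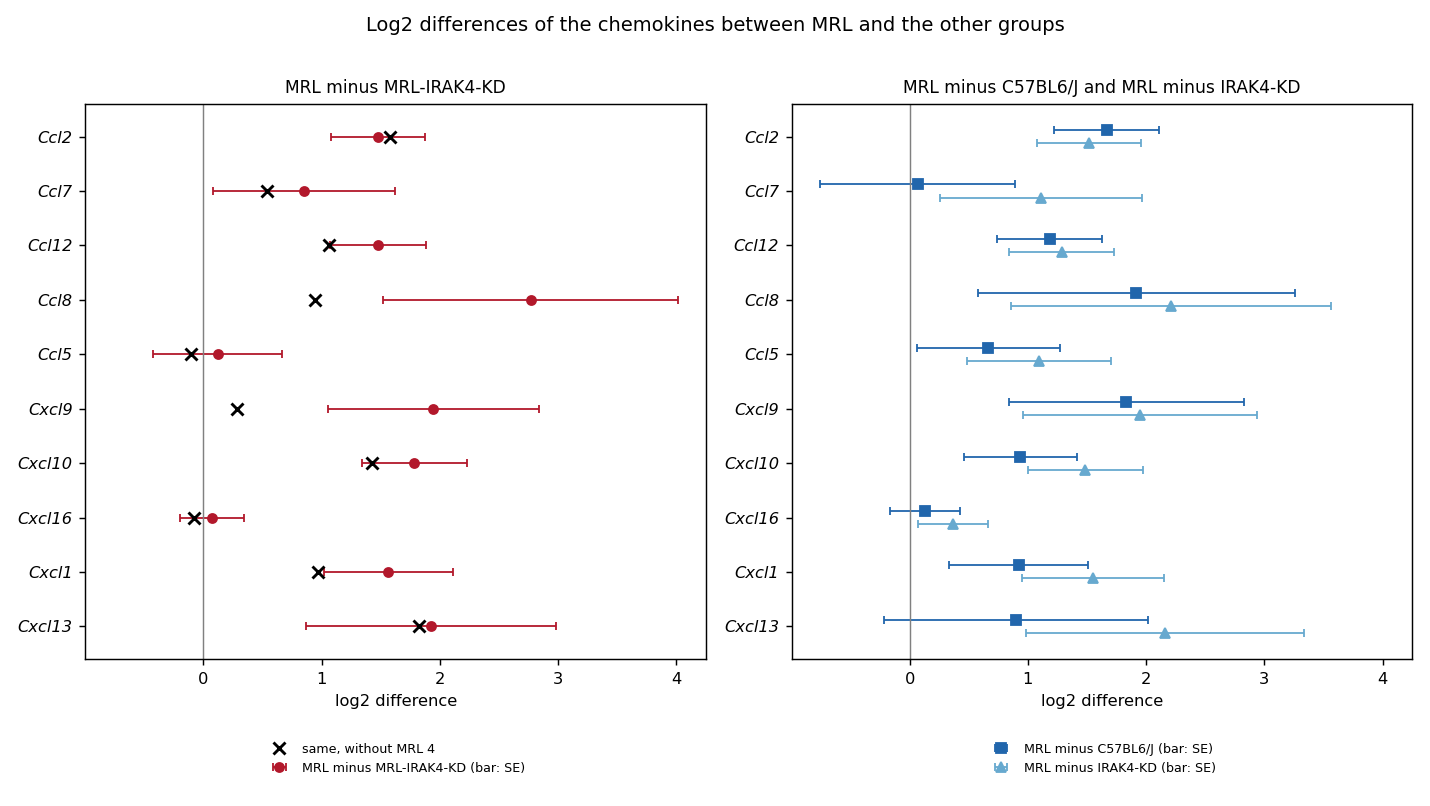
Log2 difference of MRL from each other group on the x axis, 1 row a chemokine, with bars of 1 standard error. Left: MRL minus MRL-IRAK4-KD, where crosses give the value without MRL 4. Right: MRL minus C57BL6/J (squares) and minus IRAK4-KD (triangles). Ccl8 and Cxcl9 shift from 2.77 to 0.94 and from 1.94 to 0.29 without MRL 4, while Ccl2 goes from 1.48 to 1.58.

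Over the members, MRL was above each other group in all 10, by the direction that the choice of members largely fixed. The median log2 difference was 1.52 against MRL-IRAK4-KD, 0.93 against C57BL6/J and 1.5 against IRAK4-KD, where the median over all genes was between -0.01 and 0.00. Without MRL 4 these medians were 0.96, 0.37 and 0.86, with 8, 8 and 10 of 10 above 0. Without MRL-IRAK4-KD 4 the first was 1.52, and without the library labelled IRAK4-KD 3 the last was 1.41. Groups did not overlap, with MRL above, for 3 members against MRL-IRAK4-KD (Ccl2, Ccl12 and Cxcl10), beside 3.13% of all genes. Against C57BL6/J this held for 1 member, Ccl2, beside 4.47%, and against IRAK4-KD for 2, Ccl2 and Cxcl10, beside 6.74%.

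With edgeR's quasi-likelihood test, 0 of 10 members passed an adjusted p of 0.05 against MRL-IRAK4-KD, C57BL6/J or IRAK4-KD, where 0.0972%, 0% and 0.441% of all genes did. At an unadjusted p of 0.05 the counts were 6, 2 and 4 members, beside 11.4%, 5.55% and 9.09% of all genes. DESeq2, the tool of the study, called 3 members (Ccl2, Ccl12 and Cxcl10), 1 (Ccl2) and 2 (Ccl2 and Cxcl10) of the 9 that it gave an adjusted p, beside 1.34%, 0.742% and 3.96% of all genes. limma-voom called 0 in each, beside 0.609%, 0.176% and 4.26%. These counts come from the contrasts that chose the members and are given as a description.

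**Figure D3:**
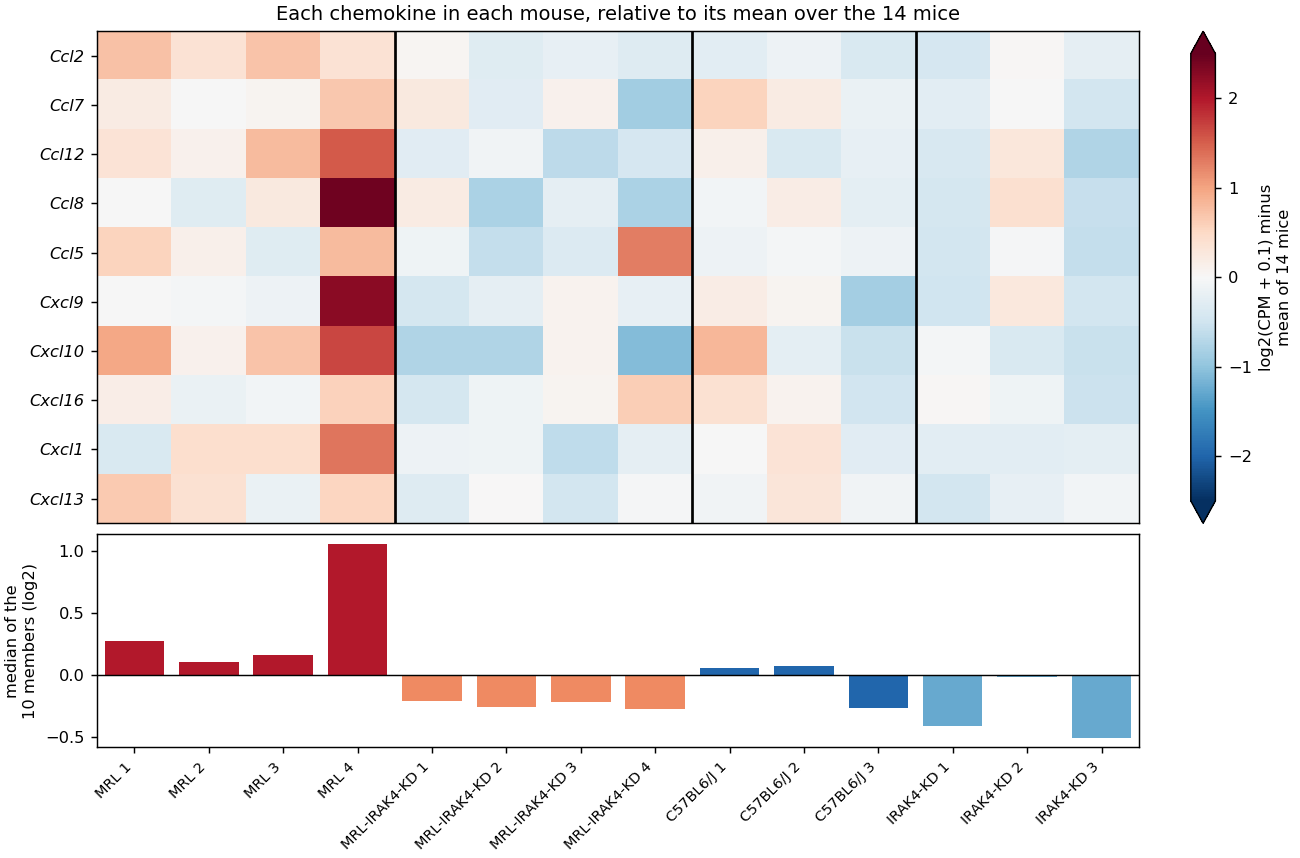
Top: log2(CPM + 0.1) of each chemokine in each mouse minus its mean over 14 mice, red above and blue below, with lines between groups. Bottom: the median of the 10 values of each mouse, which is 1.06 in MRL 4 and between 0.10 and 0.28 in the other MRL mice.

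Mice differed within groups as well. The median over the members of a mouse's log2 deviation from the mean of 14 mice was 0.28, 0.10, 0.16 and 1.06 in MRL 1 to 4. In MRL-IRAK4-KD mice it was between -0.28 and -0.21. C57BL6/J mice had between -0.27 and 0.07 and IRAK4-KD mice between -0.51 and -0.02. The MRL mice were the 4 highest, which the choice of members largely fixed. MRL 2 (0.10) lay close to C57BL6/J 2 (0.07), where the pooled SD within groups was 0.28. MRL 4 stood apart from the rest with the highest level of 6 of the 10 members. The library labelled IRAK4-KD 3 had the lowest score and the lowest level of 3 members.

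The comparisons without MRL mice asked whether the kinase-dead allele, or lpr on top of it, went with other levels of these genes. Of these, the comparison of IRAK4-KD with C57BL6/J shares no mouse with the contrast of MRL and MRL-IRAK4-KD, while both others share the MRL-IRAK4-KD mice. The other groups were also in view when the members were chosen, so neither these comparisons nor their p-values are free of that choice. Choosing members high in MRL against MRL-IRAK4-KD can also bias the MRL-IRAK4-KD levels low. The library labelled IRAK4-KD 3 had the Fas transcripts of lpr mice, so its group is unsure. In IRAK4-KD mice 9 of 10 members had a log2 difference below 0 from C57BL6/J, with a median of -0.36 (all genes, -0.01). None of the 10 passed (edgeR, adjusted p = 1.0 for each), where 0.147% of all genes did. At an unadjusted p of 0.05 the count was 0 of 10, beside 3.8%. Ccl7 had the smallest unadjusted p of the members, with a log2 difference of -1.04 (standard error 0.90) that was -0.65 without C57BL6/J 1. Cxcl13 had -1.26 (1.21), which was -2.06 without the library labelled IRAK4-KD 3 and -0.69 without IRAK4-KD 1. Cxcl10 had -0.55 (0.50), which was 0.08 without C57BL6/J 1. Ccl2 was the only member above 0, at 0.15 (0.46), and was -0.22 without IRAK4-KD 2. The shared direction depended on single mice of both groups. It held for 6 of 10 members without C57BL6/J 1, IRAK4-KD 1 or the library labelled IRAK4-KD 3, for 7 without C57BL6/J 2, and for all 10 without C57BL6/J 3 or IRAK4-KD 2, and the median ran from -0.70 to -0.15. Marker genes of other cells also differed in this comparison. Of 7 endothelial markers 0 were above 0, with a median log2 difference of -0.605 and 4 lower at an unadjusted p of 0.05, and their sums did not overlap (66.4 to 75.1 CPM in IRAK4-KD, 92.5 to 115.5 in C57BL6/J mice). Of 9 thalamus and striatum markers 5 were higher and 1 lower at that threshold, with a median of 1.05, and the 383 CPM of the library labelled IRAK4-KD 3 stood beside 97.4 and 120 CPM in the other IRAK4-KD mice. The part of these cells in the chemokine values was not tested.

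MRL-IRAK4-KD mice, compared with C57BL6/J, had 7 of 10 members below 0, with a median of -0.47. It was -0.15 without C57BL6/J 1 and -0.78 without C57BL6/J 3, and without MRL-IRAK4-KD 4 it was -0.39 with 9 of 10 below 0. None passed (edgeR, adjusted p between 0.556 and 0.988; background 0.0972%), and at an unadjusted p of 0.05 again 0 of 10, beside 8.62%. Cxcl10 had the smallest unadjusted p, with a log2 difference of -0.85 (standard error 0.47), which was -0.22 without C57BL6/J 1. Ccl2, the gene that set MRL mice apart, had 0.19 (0.43), and -0.05 without MRL-IRAK4-KD 1. All 7 choroid plexus markers had a log2 difference above 0 in this comparison, 5 of them at an unadjusted p of 0.05. These values include MRL-IRAK4-KD 4, whose choroid plexus sum was 7784 CPM where the median of its group was 1193. Compared with IRAK4-KD, MRL-IRAK4-KD mice had 6 members above 0 and 4 below, with a median of 0.02, which ran from -0.165 without IRAK4-KD 1 to 0.37 without IRAK4-KD 2. None passed (edgeR, adjusted p between 0.577 and 1.0; background 0.0735%), and 0 of 10 had an unadjusted p below 0.05, beside 8.63%. Ccl5 had the highest value, 0.97 (standard error 0.61), which was 0.02 without MRL-IRAK4-KD 4. Without the library labelled IRAK4-KD 3 there were 4 members above 0 and 6 below, with a median of -0.016. Leaving out MRL-IRAK4-KD 4 as well gave 3 above, 7 below and a median of -0.155. With all libraries, 4 of 7 endothelial markers were higher at an unadjusted p of 0.05, and 5 of 9 thalamus and striatum markers were lower. The thalamus and striatum values include the 383 CPM of the library labelled IRAK4-KD 3. The part of these cells was not tested.

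DESeq2 and limma-voom also called 0 members in these 3 comparisons. For DESeq2 the share of all genes called was 0.522% for IRAK4-KD against C57BL6/J, 0.58% for MRL-IRAK4-KD against C57BL6/J and 1.06% against IRAK4-KD. For limma-voom it was 0.381%, 0.213% and 0.699%. The standard errors, from 0.29 for Cxcl16 to 1.38 for Ccl8, show how wide a difference these group sizes leave undetected. A p above the threshold does not show that the groups have the same level.

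**Figure D4:**
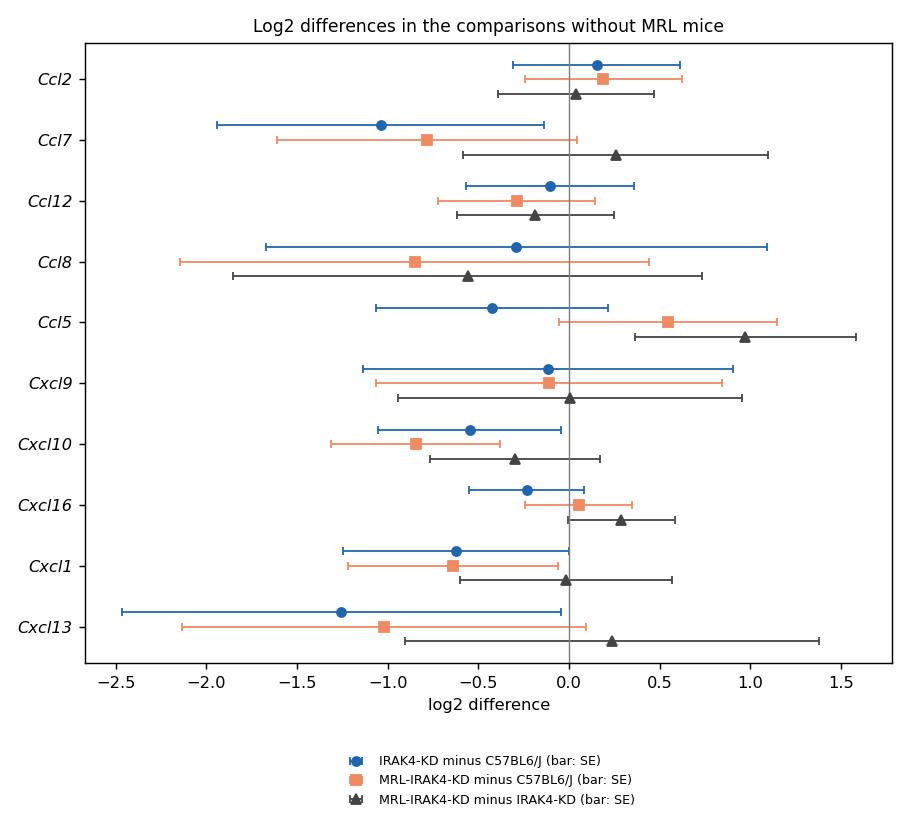
Log2 difference of each chemokine in the 3 comparisons without MRL mice, with bars of 1 standard error. Circles give IRAK4-KD minus C57BL6/J, squares MRL-IRAK4-KD minus C57BL6/J and triangles MRL-IRAK4-KD minus IRAK4-KD. For IRAK4-KD minus C57BL6/J, 9 of 10 points lie left of 0, the lowest being Cxcl13 at -1.26.

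The difference of differences, MRL minus MRL-IRAK4-KD less C57BL6/J minus IRAK4-KD, contains the contrast that chose the members and is described only. It was above 0 for 7 of 10, with a median of 1.09. Ccl2 had 1.63 (standard error 0.61), Ccl12 1.37 (0.61) and Cxcl10 1.24 (0.67), while Ccl5 had -0.31 (0.84).

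The receptors for these chemokines were fixed as a list of 13. In the comparisons of MRL with each other group 0 of 13 passed the adjusted threshold, and at an unadjusted p of 0.05 4 were higher than in MRL-IRAK4-KD, among them Ccr1, Ccr2 and Cxcr2, beside 11.4% of all genes. Against C57BL6/J the count was 3 higher, beside 5.55%, and against IRAK4-KD 2 higher and 1 lower, beside 9.09%. MRL mice had 0.614 ± 0.445 CPM (SD, n = 4) of Ccr2, the monocyte receptor of Ccl2, and MRL-IRAK4-KD mice 0.190 ± 0.0463. The log2 difference was 1.69 (standard error 0.51), with 0.56 (0.54) against C57BL6/J and 0.83 (0.55) against IRAK4-KD. Ccr1 had 0.90 (0.37) against MRL-IRAK4-KD, 1.02 (0.40) against C57BL6/J and -0.06 (0.39) against IRAK4-KD. Cxcr2, the neutrophil receptor of Cxcl1, had 0 counts in all 4 MRL-IRAK4-KD libraries and 10 to 143 in MRL libraries. Among all genes, 3.13% had MRL wholly above MRL-IRAK4-KD. The log2 difference of Cxcr2 in MRL was 3.41 (1.41) from C57BL6/J and 2.69 (1.33) from IRAK4-KD. MRL-IRAK4-KD mice were also below C57BL6/J (-5.41) and IRAK4-KD (-6.12), so their 0 counts make up much of the contrast with MRL. Cxcr3, the receptor of Cxcl9 and Cxcl10, had 0.0789 ± 0.0267 CPM in MRL and 0.0643 ± 0.0170 in MRL-IRAK4-KD mice, which overlapped. In the comparison of IRAK4-KD with C57BL6/J, 0 of 13 receptors passed the adjusted threshold. At an unadjusted p of 0.05, 2 were higher and 1 lower, beside 3.8% of all genes. At that threshold MRL-IRAK4-KD mice had 1 receptor higher and 2 lower than C57BL6/J mice, beside 8.62%. Against IRAK4-KD mice they had 0 higher and 2 lower, beside 8.63%. In both, 0 of 13 passed the adjusted threshold, beside 0.0972% and 0.0735%.

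Of 26 other chemokine ligands fixed as a list, 24 could be tested and 0 passed against any group. Between MRL and MRL-IRAK4-KD mice 10 of 24 were above 0. At an unadjusted p of 0.05, 2 of the 24 were higher and 1 was lower in MRL, beside 11.4% of all genes. The median log2 difference of the 24 in this comparison was -0.06. That of the members, 1.52, was largely fixed by how they were chosen, so these medians do not show that the members differ from other ligands. Ppbp, a platelet chemokine, was at 0.328 ± 0.222 CPM (SD) in the 4 MRL mice and at 0.00918 ± 0.0108 in the 4 MRL-IRAK4-KD mice. Cxcl11, the third ligand of Cxcr3, had 0.147 ± 0.208 CPM in MRL, with its highest count of 219 in 1 library, and 0.0373 ± 0.0260 in MRL-IRAK4-KD mice.

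Of 26 regulators and inducers of these genes, 25 could be tested. Between MRL and MRL-IRAK4-KD mice 19 of 25 were above 0, with 0 past the adjusted threshold and 7 at an unadjusted p of 0.05, among them Stat3, Stat6, Irf1, Irf7, Irf9 and Il1b, beside the same 11.4%. Irf7, the interferon regulatory factor induced by type I interferon, was at 3.74 ± 1.53 CPM (SD) in the 4 MRL mice, at 1.79 ± 0.320 in the 4 MRL-IRAK4-KD mice, and at 1.24 ± 0.141 and 0.868 ± 0.0943 in the 3 C57BL6/J and 3 IRAK4-KD mice. Against IRAK4-KD it was the only gene of this list past the adjusted threshold, beside 0.441% of all genes. Its log2 difference there was 2.11 (standard error 0.28), with the library labelled IRAK4-KD 3 included. Of the cytokines that induce these chemokines, Ifng had at most 15 counts in a library, Tnf at most 68 and Il1b at most 250, and Ifnb1 had 0 in all libraries.

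The summed levels of endothelial and of microglia markers were also higher in every MRL mouse than in the 10 others. In bulk tissue, fewer cells of a type and less RNA per cell cannot be told apart. The summed level of 7 endothelial markers was 153 to 277 CPM in MRL mice and at most 124 in all others, and MRL 4 had the highest. Of these 7, 1 (Slco1a4) passed the adjusted threshold between MRL and MRL-IRAK4-KD, and 6 had an unadjusted p below 0.05. Over all genes these shares were 0.0972% and 11.4%, which also stand beside the marker counts of this comparison below. Against IRAK4-KD, 4 endothelial markers passed the adjusted threshold, beside 0.441%. The 8 microglia markers summed to 346 to 446 CPM in MRL mice and at most 333 elsewhere, with 2 of 8, among them Itgam, higher than in MRL-IRAK4-KD at an unadjusted p of 0.05, 0 past the adjusted threshold, and Trem2 at -0.16 (standard error 0.22). The 9 monocyte and neutrophil markers summed to 2.38 to 24.5 CPM in MRL mice, 1.37 to 3.44 in MRL-IRAK4-KD, 1.55 to 3.04 in C57BL6/J and 1.83 to 4.88 in IRAK4-KD mice, and 8 of the 9 were higher in MRL than in MRL-IRAK4-KD at an unadjusted p of 0.05, with 0 past the adjusted threshold. The 5 red cell genes summed to 83.9 to 369 CPM in MRL and 19.8 to 193 elsewhere, which overlapped. At an unadjusted p of 0.05, 3 of these 5 were higher in MRL than in MRL-IRAK4-KD, beside 11.4% of all genes. All 5 were higher than in C57BL6/J, beside 5.55%, and than in IRAK4-KD, beside 9.09%. Against IRAK4-KD, Hbb-bt also passed the adjusted threshold, beside 0.441%. The 7 border macrophage markers were 9.40 to 18.1 CPM in MRL, with the highest in MRL 4, and 5.53 to 12.6 elsewhere, which overlapped, and 0 of 7 had an unadjusted p below 0.05 against MRL-IRAK4-KD. No marker of these lists was at 0 in all libraries. Hippocampal neuron markers summed to 812 to 1340 CPM in MRL and 946 to 2492 elsewhere, so the labelled tissue had its markers in every library, but MRL 2, 3 and 4 had the lowest 3 of the 14 sums. Between MRL and MRL-IRAK4-KD 1 of 8 of these markers was above 0, with a median log2 difference of -0.59 and 5 lower at an unadjusted p of 0.05, 0 of them past the adjusted threshold. These values include MRL-IRAK4-KD 4, the library with the sum of 2492 CPM. The part of any of these cells in the chemokine levels was not tested.

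**Figure D5:**
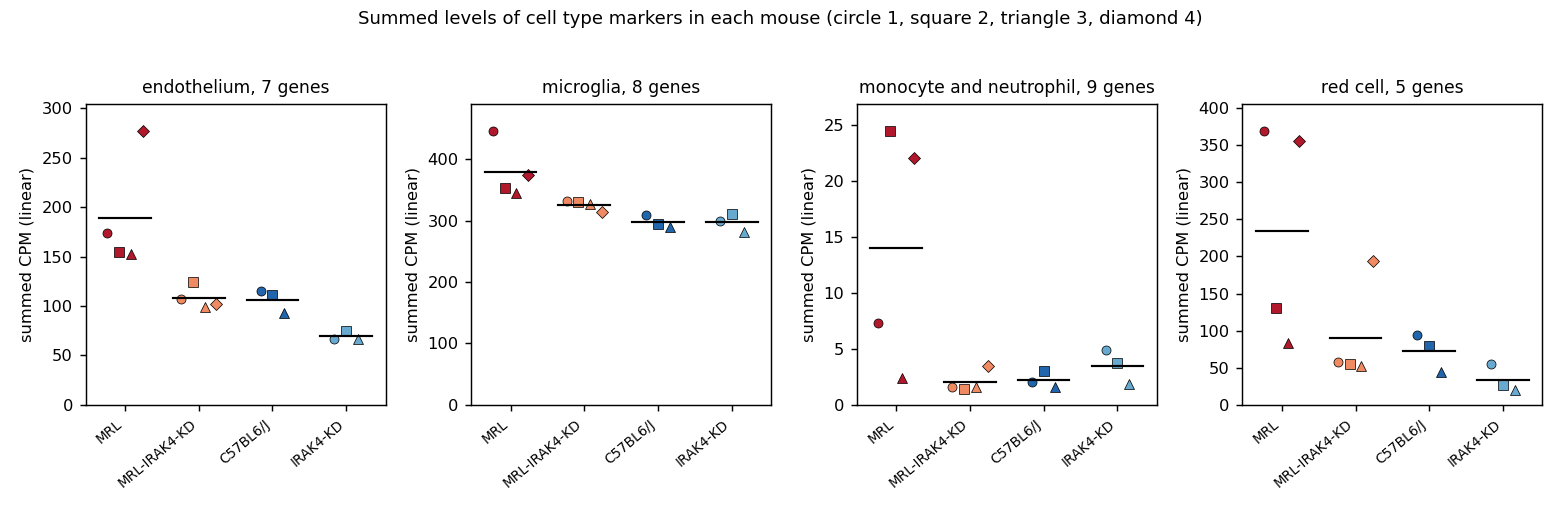
Summed CPM of marker genes of endothelium, microglia, monocytes and neutrophils, and red cells in each mouse on linear axes, with bars at group means. All 4 MRL mice are above all others for the endothelium (lowest 153 CPM) and microglia (lowest 346 CPM), and the MRL range is wide for monocytes and neutrophils (2.38 to 24.5 CPM).

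Other lists showed no such separation. Lymphocyte and plasma cell markers summed to 19.5 to 30.2 CPM in MRL and 16.9 to 30.6 CPM elsewhere, and dendritic cell markers to 19.8 to 24.2 CPM and 14.5 to 23.4. Astrocyte markers summed to 3805 to 4638 CPM in MRL and 2605 to 4420 elsewhere, pericyte and smooth muscle markers to 133 to 145 and 64.0 to 135, and meninges and fibroblast markers to 176 to 278 and 138 to 340.

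The genes whose log2 levels were most like each member over the 14 mice were listed among 16103 genes with a mean of at least 1 CPM. These correlations share libraries and depth and are descriptions, and the values without MRL 4 were added after the data had been seen. For Ccl2 they were Naip2 (Pearson r = 0.887), Sgk1 and Tec, and without MRL 4 Naip2 had 0.900. For Ccl12 they were Stat6 (0.905), Runx1 and Slco1c1, an organic anion transporter of brain endothelium, and for Cxcl10 Rnf213 (0.891), Lrrk1 and Itpr3. For Cxcl9 they were Gbp7, Iigp1 and Gbp2, all interferon-induced GTPases (0.913, 0.909 and 0.888), and without MRL 4 these were 0.446, 0.316 and 0.243. For Ccl8 they were Vcam1, Cd274 and Gbp5 (0.920, 0.860 and 0.846), and without MRL 4 these were 0.823, 0.353 and 0.234. Among the genes most like Ccl5 was C1qb, a complement gene of microglia and phagocytes, and Cxcl16 was most like H2-Ab1 (0.900). Ccl7 was most like Ms4a6b (0.902), Cxcl1 most like Prkd2 (0.883) and Cxcl13 most like Alas2 (0.809), a gene of red cell precursors.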

How the data were processed

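RNA from the hippocampus of 14 mice was sequenced as poly(A) libraries; the labels name a KAPA mRNA kit and the study's methods another kit, so the protocol is uncertain. Per the labels and methods, HISAT2 2.1.0 (mm10) and StringTie 2.1.0 were used by the authors to make the deposited counts per gene. StringTie computes counts from coverage, and totals exceeded the reads listed by 1.4 to 2.08 times; halved counts were tried. Counts were scaled by TMM and fitted with edgeR 4.0.16 (glmQLFit, robust) in 1 model of the 4 groups on 38070 genes with at least 10 counts in total, with Benjamini-Hochberg adjustment. Standard errors were derived as the size of the log2 difference over the square root of edgeR's F statistic, so they are unreliable where the difference is near 0. Log2 scores used CPM + 0.1. The members, gene lists and doubted libraries were chosen with earlier results of these data known. All 10 members are named, and other genes come from fixed lists of receptors, ligands, regulators and cell markers, or rank in the top 3 by likeness. DESeq2 1.42.0 and limma 3.58.1 served as alternatives. Some genes of these lists are not reported here. The fits were checked on simulated data. P-values measure the spread between these mice.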

Additional observations from a re-analysis of the deposited data

Results flagged for a closer look

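In 54 groups of 4 mice (10 members and 17 gene lists, in MRL and MRL-IRAK4-KD mice), the highest or lowest mouse was set against the rest by Dixon's ratio at its 95% critical value, which chance passes in about 1 of 20 groups. The items were measured in the same mice, on linear CPM, and some lists share genes, so the count of passes cannot be set against that rate. The critical value was passed 13 times, 8 of them by MRL-IRAK4-KD 4 and 4 by MRL 4. Of these, 3 were members. Ccl8 in MRL 4 had 0.832 CPM, where the other MRL mice had 0.0403 to 0.106. Cxcl9 in MRL 4 had 0.826 CPM, where they had 0.0760 to 0.0903. Ccl5 in MRL-IRAK4-KD 4 had 0.576 CPM, where the rest of its group had 0.0842 to 0.157. In MRL 4 the summed levels of the regulators and inducers (356 CPM) and of endothelial markers (277 CPM) also stood above the group. In MRL-IRAK4-KD 4 the sums of other chemokine ligands (388 CPM) and astrocyte markers (2605 CPM) stood below the group. Its sums of partner receptors (53.1 CPM), hippocampal neurons (2492 CPM), monocytes and neutrophils (3.44 CPM), pituitary (5.65 CPM) and red cells (193 CPM) stood above. The pituitary sum of MRL 3, 87.2 CPM, stood far above the other MRL mice. The cause of these values was not tested.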

How the results depend on the processing

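The count of members called stayed at 0 in the 3 comparisons without MRL mice under all 10 alternatives and with each of 14 libraries left out. The smallest adjusted p under any alternative was 0.739, 0.393 and 0.422 for IRAK4-KD against C57BL6/J, MRL-IRAK4-KD against C57BL6/J and MRL-IRAK4-KD against IRAK4-KD. The median log2 difference of the members moved beyond the spread between mice in 5 settings of the comparisons with MRL mice and in 4 of the others. With the most abundant transcript of each gene, that against MRL-IRAK4-KD was 1.82. With each library left out in turn the medians ran from 0.96 to 1.68 against MRL-IRAK4-KD, 0.37 to 1.17 against C57BL6/J and 0.86 to 1.66 against IRAK4-KD, with MRL 4 setting each lowest value. They ran from -0.70 to -0.15 for IRAK4-KD against C57BL6/J, -0.78 to -0.15 for MRL-IRAK4-KD against C57BL6/J and -0.165 to 0.37 for MRL-IRAK4-KD against IRAK4-KD. With the replicate number as a block the median against IRAK4-KD was 1.11. The numbers did not pair the mice (19 same-number pairs, r from -0.251 to 0.375, 4 of 14 libraries closest to their own number), and the block left 0 members called.

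Directions turned for weak values. Without MRL 4, MRL was below MRL-IRAK4-KD for Ccl5 (-0.10) and Cxcl16 (-0.08) and C57BL6/J for Ccl7 (-0.24) and Cxcl16 (-0.03). With 1 library left out, Ccl2 in IRAK4-KD against C57BL6/J ran from -0.22 to 0.41, below 0 without C57BL6/J replicate 3 or IRAK4-KD replicate 2, Cxcl10 in the same comparison from -0.83 to 0.082 (without C57BL6/J replicate 1), Ccl2 in MRL-IRAK4-KD against C57BL6/J from -0.055 (without MRL-IRAK4-KD replicate 1) to 0.39, Ccl5 there from -0.40 (without MRL-IRAK4-KD replicate 4) to 0.80, and Ccl8 in MRL-IRAK4-KD against IRAK4-KD from -1.72 to 0.82 (without IRAK4-KD replicate 2). Ccl2 in MRL-IRAK4-KD against C57BL6/J was -1.75 on its most abundant transcript. Ccl5 in that comparison was -0.40 without both doubted libraries, -0.41 in limma-voom and -0.24 with the block. Ccl5 against IRAK4-KD was -0.19 without both and -0.082 in limma-voom.

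Over all genes, DESeq2 called 397 against MRL-IRAK4-KD where edgeR called 37, 203 against 0 for C57BL6/J and 1084 against 168 for IRAK4-KD, and limma-voom called 232, 67 and 1623. For IRAK4-KD against C57BL6/J, MRL-IRAK4-KD against C57BL6/J and MRL-IRAK4-KD against IRAK4-KD, edgeR called 56, 37 and 28 genes, DESeq2 162, 180 and 305, and limma-voom 145, 81 and 266. With only the groups compared in the fit, MRL against MRL-IRAK4-KD had 18 genes, and MRL-IRAK4-KD had 13 against C57BL6/J and 6 against IRAK4-KD. Without MRL-IRAK4-KD replicate 4, MRL against IRAK4-KD had 1088 genes. With each count taken as a read, counts of 0 for Ccl7, Ccl8 and Cxcl13 allow up to 3 counts in those libraries. Halving all counts left 0 members called.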
